A study of Mus musculus with 6 samples.

Results

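The dystrophin-associated complex was followed in mdx myoblasts through 8 genes, taken from the count table by their symbols out of 47069 genes listed: Dmd, Utrn, Dag1, Sgca, Sgcb, Sgcd, Sgce and Dtna. RNA-seq libraries were made from cultured satellite cells of mdx mice, in which a point mutation of Dmd introduces a premature stop codon, so that every library of both groups carries this allele. The cells received 10 μM PSB-KD107, an agonist of the receptor Gpr18, or vehicle (DMSO in aqueous buffer), with 3 libraries per group. The sample records give a treatment of 2 days, whereas the study's text describes an overnight one. According to these methods, the myoblasts came from 3 mdx mice, which were male and on the C57BL/10 background in the animal work, and were sorted as negative for Sca-1, CD45, CD31 and CD11b and positive for Itgb1 and Itga7. The methods give an age for the mice of the animal work but not for the donors of the sorted cells, no wild-type cells were sequenced in this comparison, and the records do not say which library came from which mouse. P-values therefore measure the spread between these libraries. The table numbers its libraries 1, 2 and 4 in each group, and these numbers are used below.

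Dystrophin links cortical actin to a complex in the muscle cell membrane, where dystroglycan binds laminin outside the cell and the sarcoglycans stabilise dystroglycan. Utrophin, an autosomal relative of dystrophin, can bind the same partners, and alpha-dystrobrevin holds signalling proteins at the membrane side of the complex. In mdx muscle the absence of dystrophin protein destabilises the other subunits, mainly after transcription, and transcript levels do not measure protein.

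The libraries held between 30917613 and 48756794 counts, and a count of 3 corresponded to 0.0596 to 0.0962 CPM (counts scaled by the TMM-normalized library total), a floor that covers counting error only. PSB-KD107 library 4 stood apart in its number of genes far from every other library. Over 14165 tested genes, its root mean square log2 distance to the others was 0.90 to 1.08, against 0.36 to 0.96 among the rest. These ranges overlapped, the 0.96 being that of vehicle library 4 to PSB-KD107 library 1. Of 10831 genes reaching 5 CPM, 30 lay at or under 1/5 of every other library in PSB-KD107 library 4, against at most 1 in any other library. A further 114 genes lay at 5 times every other library or more in it, against at most 2 elsewhere. These thresholds were chosen after the values were seen. Xist, the RNA of the inactive X chromosome, was at 6.45 and 7.41 CPM in both libraries numbered 1 and at 276 to 437 CPM in the other 4, while the Y-linked genes Ddx3y, Uty, Kdm5d and Eif2s3y were at no more than 0.119 CPM in any library. The sex-linked transcripts were looked at after the data were seen. Y-linked transcripts were thus near 0 in all 6 libraries and Xist was high in 4, which goes against the male sex that the methods give for the mice. The sample records give no sex, and the part of the Xist difference in the results below was not tested.

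The cells carried the transcripts of committed muscle cells. Pax7, a satellite cell factor, was at 68.8, 49.9 and 60.0 CPM with vehicle and 34.0, 26.8 and 35.1 CPM with PSB-KD107, and Myod1, a determination factor, was at 399 to 1060 CPM. Myog, which drives differentiation, was at 2042, 2203 and 2158 CPM with vehicle and 1175, 1726 and 1661 CPM with PSB-KD107. Myh3, the embryonic myosin heavy chain, was at 11842 to 18255 CPM, Ckm, the muscle creatine kinase, at 222 to 818 CPM, and Myf5, another determination factor, at 3.57 to 40.9 CPM. The libraries thus held transcripts of differentiating cells as well as of myoblasts. The groups did not overlap for Pax7, Myog or Myh3, all lower with PSB-KD107, with log2 fold changes of -0.90, -0.49 and -0.44 (edgeR's quasi-likelihood test with Benjamini-Hochberg adjustment, adjusted p = 0.209, 0.469 and 0.493). DESeq2 gave adjusted p = 0.0018, 0.203 and 0.0306 for the same genes. Its call of Pax7 was lost without vehicle library 4 (adjusted p = 0.0576), and that of Myh3 without any 1 of the vehicle libraries or PSB-KD107 library 1 (0.0825 to 0.292). Of 11 markers of differentiating myocytes, 4 had a log2 fold change above 0 and 7 below, and 5 were lower without overlap and 0 higher, against 6.59% and 9.2% of genes tested. Ttn and Ckm lay above 0, at 0.35 and 0.33, and Acta1 and Tnnt3 at 0.01. Without PSB-KD107 library 4, Ttn, Ckm, Acta1 and Tnnt3 were at -0.11, -0.48, -0.38 and -0.04. The summed level of the 11 was 34692 to 42765 CPM with vehicle and 29280 to 33947 CPM with PSB-KD107. Markers of other cell types summed to 1.95 to 11.4 CPM for fibro-adipogenic progenitors (8 genes), 0.310 to 1.40 CPM for endothelium (6 genes), 0.688 to 6.56 CPM for immune cells (6 genes) and 2.62 to 5.68 CPM for Schwann cells (5 genes). The highest progenitor sum, 11.4 CPM, was that of PSB-KD107 library 4. Ly6a, which encodes the Sca-1 antigen sorted against, made up 8.36 CPM of it, against at most 1.29 CPM in the other libraries. Pdgfra was also highest there, at 1.46 CPM against 0.609 to 1.17 CPM. Dcn was lowest there, at 0.0275 CPM against 0.516 to 1.25 CPM. Cd34, Col1a1 and Dpt lay within the range of the other libraries, and Lum and Tcf21 had 0 CPM in every library. The part of Ly6a in the results below was not tested. The list for smooth muscle and pericytes (6 genes) summed to 5138 to 7573 CPM, and it contains genes that muscle cells also express. In bulk RNA, fewer cells of a kind and less RNA per cell cannot be told apart.

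Dmd has more than 1 promoter, and counts per gene do not separate their products. Upstream windows of 250 bases are shown for both Dmd starts in the RefSeq table, because Dmd had the widest spread among libraries of the 8 genes, and for Sgca, which had the smallest p-value among them. The sequences are from RefSeq on GRCm38, which is mm10, and are written 5′ to 3′ on the gene's strand and end just before the annotated start. Capitals mark E-boxes, searched as CANNTG on both strands, the motif bound by Myod1 and Myog.
Dmd, long form, chrX:82948620-82948869, + strand: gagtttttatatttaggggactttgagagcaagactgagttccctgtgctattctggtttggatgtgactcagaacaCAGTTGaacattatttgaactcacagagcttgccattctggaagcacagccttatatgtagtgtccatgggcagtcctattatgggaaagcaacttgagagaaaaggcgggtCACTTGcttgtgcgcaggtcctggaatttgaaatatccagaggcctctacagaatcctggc
Dmd, short form, chrX:85048045-85048294, + strand: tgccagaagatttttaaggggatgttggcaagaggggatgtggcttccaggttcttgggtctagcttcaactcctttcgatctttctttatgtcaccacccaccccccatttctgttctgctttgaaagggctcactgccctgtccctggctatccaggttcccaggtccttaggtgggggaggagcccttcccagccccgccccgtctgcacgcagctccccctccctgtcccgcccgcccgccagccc
Sgca, chr11:94976328-94976577, - strand: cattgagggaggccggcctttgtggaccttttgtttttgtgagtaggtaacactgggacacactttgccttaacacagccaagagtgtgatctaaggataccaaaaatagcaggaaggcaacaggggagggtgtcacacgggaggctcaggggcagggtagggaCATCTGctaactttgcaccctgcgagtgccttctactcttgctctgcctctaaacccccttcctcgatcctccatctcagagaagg
The window of the long form held 2 E-boxes and 1 CArG box, the motif of serum response factor, and no GC box (GGGCGG on both strands). The window of the short form, 2099425 bases downstream, held 0 E-boxes and 3 GC boxes. The Sgca window held 1 E-box and 0 GC boxes. Among 32536 RefSeq windows of this length, 66.2% held an E-box, 33.0% a GC box and 1.5% a CArG box, so an E-box alone sets no window apart. GC content was 45.2% in the long-form window and 60.0% in the short-form window, against a median of 52.4%. In GENCODE M21, 1 coding transcript began in the region of the long-form start and 2 began further downstream. The starts of these 2 were not compared with the short-form start. Windows were taken for 6 of the 8 genes. Dtna was left out of this search, and no window was found for Sgce.

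Per length, the transcripts of the complex spanned more than 2 orders of magnitude, with Dag1 at the top and Dmd at the bottom. Levels between genes are compared here as CPM per kb of merged exons, and errors are SDs over the 3 vehicle libraries. Dag1, whose product is cut into the laminin-binding and membrane-spanning parts of dystroglycan, was at 185 ± 10.6. Sgca and Sgcb, encoding alpha- and beta-sarcoglycan, followed at 73.9 ± 9.98 and 54.7 ± 1.50. Utrn was at 13.5 ± 0.724 and Dtna, encoding alpha-dystrobrevin, at 6.82 ± 0.408. Sgce, the epsilon-sarcoglycan gene that is also used outside muscle, was at 1.83 ± 1.13, and Sgcd, encoding delta-sarcoglycan, at 1.21 ± 0.233. Dmd was at 0.768 ± 0.0819. Its counts pool long and short forms and were divided by 23801 bases of merged exons. Its level per kb and its place in the order would be higher or unsure if the counts came mostly from a short form, which was not tested. The vehicle ranges of neighbours in this order did not overlap, except those of Sgce and Sgcd. With the length of the longest transcript, Utrn and Dtna overlapped as well, at 18.7 ± 1.00 and 18.4 ± 1.10. The order says nothing of the proportions of the proteins.

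**Figure D1:**
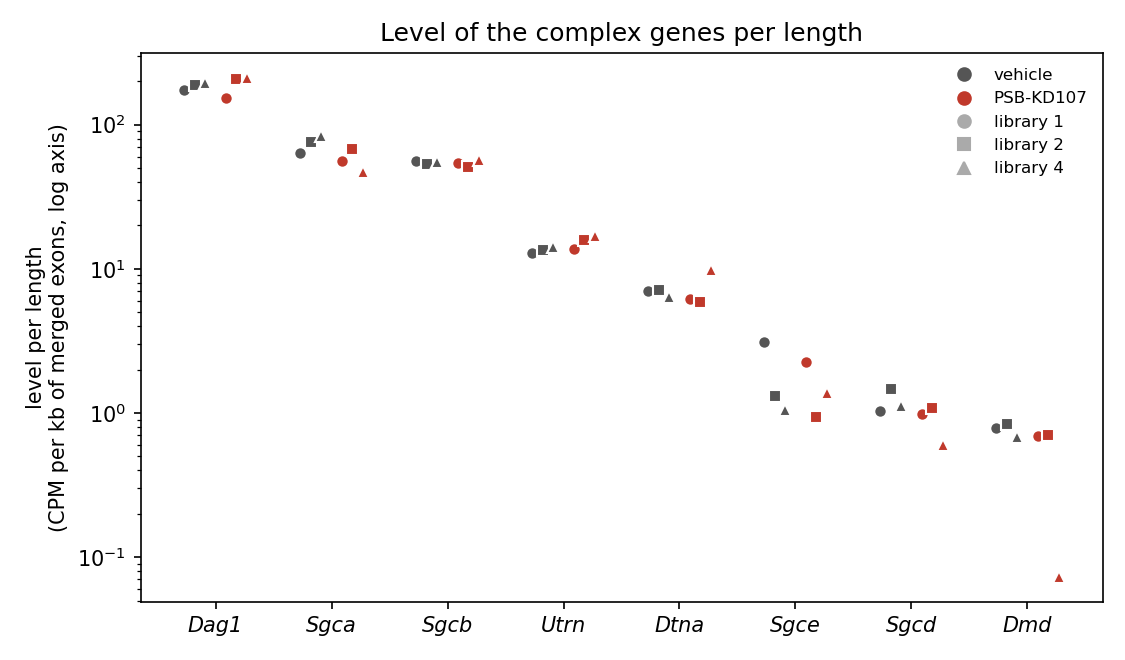
Level of the 8 genes in each library as CPM per kb of merged exons, on a log axis, with genes ordered by their vehicle mean. Grey marks are vehicle and red marks PSB-KD107 libraries. Dag1 is highest, and the PSB-KD107 library 4 value of Dmd, at 0.0728, is the lowest point.

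Utrophin transcript exceeded dystrophin transcript in every library. The Utrn to Dmd ratio per kb of merged exons was 16.3, 16.1 and 20.9 with vehicle and 19.7, 22.3 and 231 with PSB-KD107. The first 5 ratios lay within a narrow range, and the value in PSB-KD107 library 4 followed its low Dmd. The size of the ratio depends on the length taken for Dmd, whose forms the counts do not separate.

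With all 6 libraries and no term for the replicate number, none of the 8 genes was called changed by PSB-KD107. edgeR's quasi-likelihood test gave 0 of 8 at an adjusted p under 0.05, against 0 of 14165 genes tested (0%), and 0 of 8 at an unadjusted p under 0.05, against 9.4% of genes tested. DESeq2 also called 0 of 8, against 2.98% of 13761 genes with an adjusted p. The PSB-KD107 and vehicle libraries overlapped for all 8, while they did not overlap for 15.8% of genes tested, 9.2% higher and 6.59% lower with PSB-KD107. All 8 passed the filter on low counts. The log2 fold change was above 0 for 3 and below 0 for 5, with a median of -0.14, against 49.9% of genes above 0 and a median of 0.00 over all genes tested. With edgeR calling no gene at all, these results do not show that the levels were equal, and the 95% intervals below give the changes that remain possible.

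**Figure D2:**
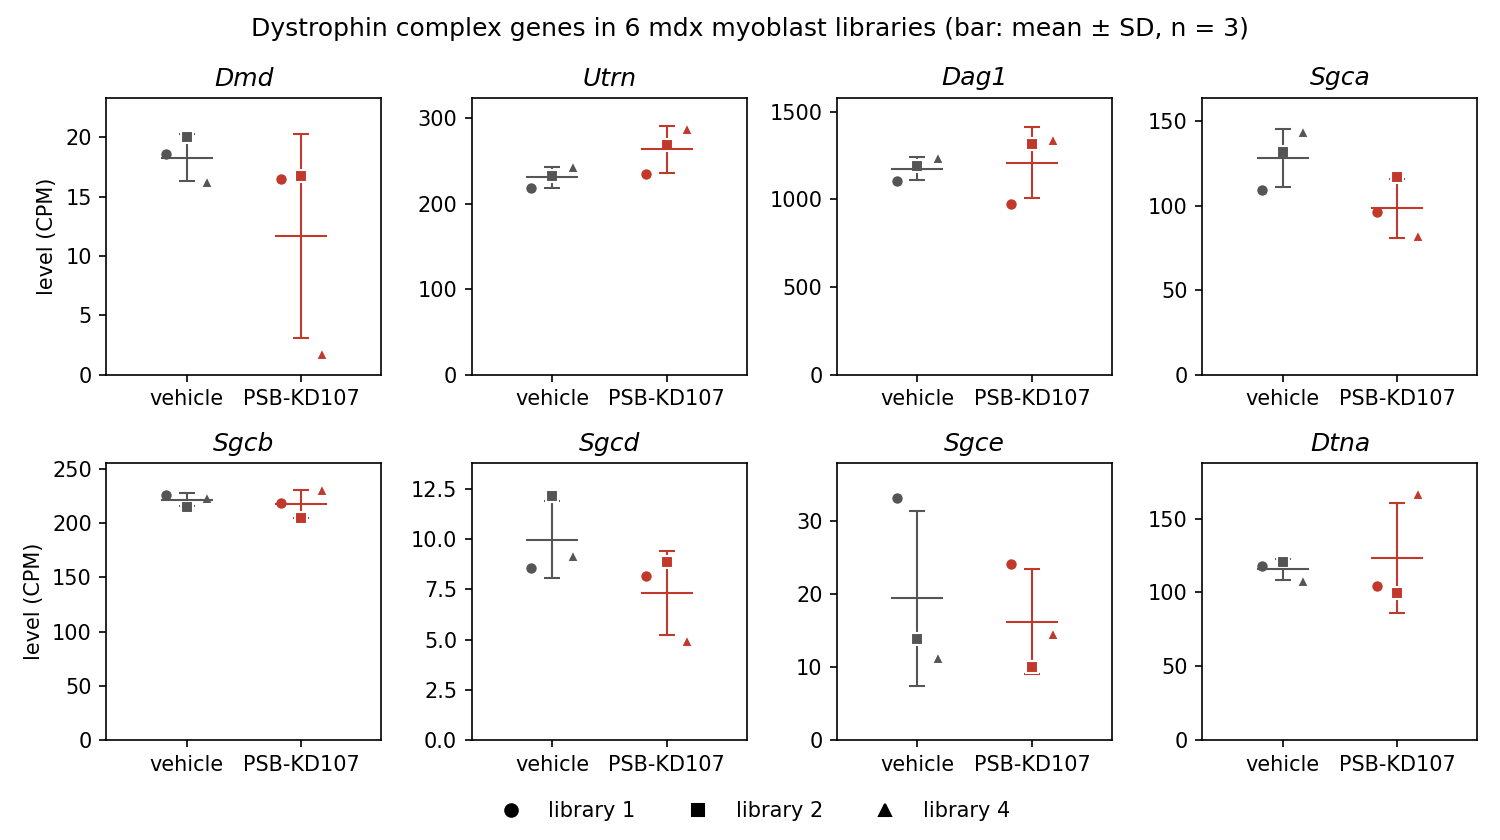
TMM-normalized CPM of the 8 genes in the 3 vehicle and 3 PSB-KD107 libraries, with each library's number given by the shape of its mark. Bars are the mean ± SD. The 2 groups overlap in every panel, and Dmd in PSB-KD107 library 4, at 1.73 CPM, lies far below the other 5 libraries.

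Dmd, on X at 82948870-85206141 (GRCm38, GENCODE M21), was at 18.6, 20.0 and 16.2 CPM with vehicle and at 16.5, 16.7 and 1.73 CPM with PSB-KD107. The last value came from 63 counts, against 522 to 831 counts in the other 5 libraries, and was therefore far above the floor. The first 2 PSB-KD107 libraries lay within the vehicle range, and library 4 lay 9.34 times below the lowest other library. The log2 fold change was -0.65 (95% interval -2.45 to 1.15, adjusted p = 0.816, edgeR), and without PSB-KD107 library 4 it was -0.14 (-0.49 to 0.21, adjusted p = 0.849). A single library thus set the size of the Dmd difference. Among the 2851 genes, of those reaching 5 CPM, that were lowest in this library, Dmd had the 15th largest gap to the next library.

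Genes next to Dmd did not share its low value. Of the 5 tested genes on either side of it on X, 0 of 10 lay under 1/2 of every other library in PSB-KD107 library 4, and the neighbour Tmem47 was at 221 to 246 CPM in all 6 libraries, with 243 CPM in that one. Tab3, the next tested gene downstream, was at 20.2 to 23.6 CPM. In that library, 21 of 489 tested X-linked genes and 366 of all 14165 tested genes lay under 1/2 of every other library. These neighbours were looked at after the Dmd values were seen.
The genes whose pattern over the 6 libraries was nearest to Dmd, by root mean square difference of centred log2 CPM among 12273 genes, were Dync1i1, which encodes a dynein intermediate chain, Palm3 and Sfi1. The differences were 0.16, 0.18 and 0.19. Dync1i1 was at 58.2 to 77.5 CPM in 5 libraries and 7.65 CPM in PSB-KD107 library 4. Palm3 was at 12.9 to 18.4 CPM and 1.35 CPM there, and Sfi1 at 13.6 to 15.6 CPM and 0.963 CPM there. All 3 matched Dmd through this 1 library.

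**Figure D3:**
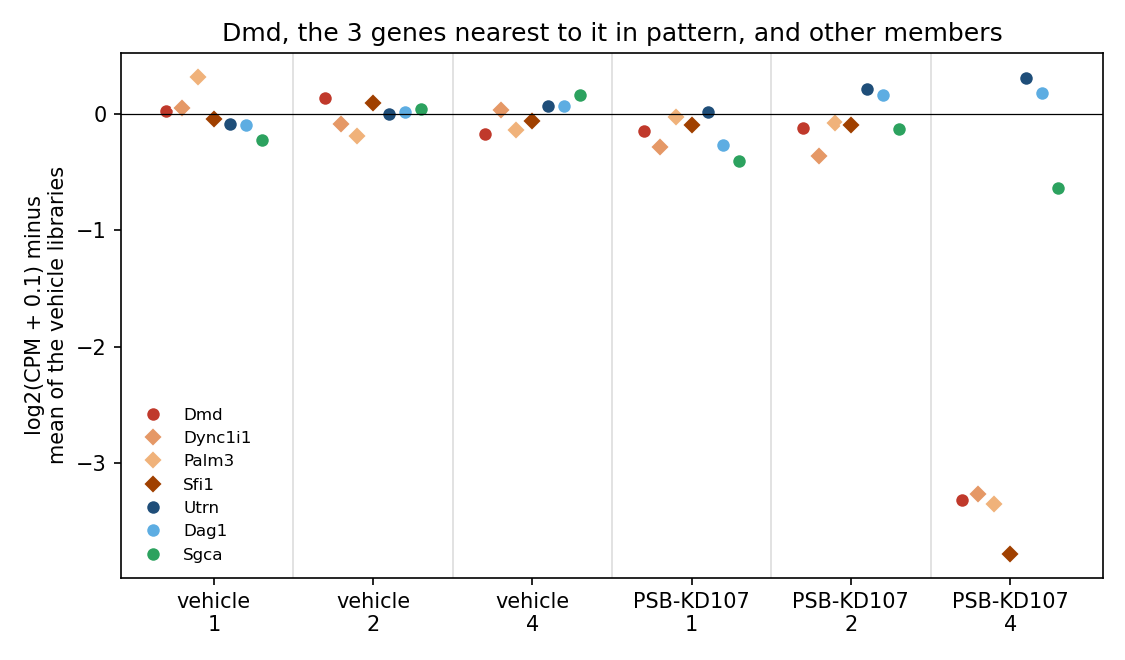
Level of Dmd, the 3 genes nearest to it in pattern (diamonds) and 3 other genes of the complex, as log2(CPM + 0.1) minus the mean of the 3 vehicle libraries, for each library. Dmd, Dync1i1, Palm3 and Sfi1 drop in PSB-KD107 library 4, where Utrn and Dag1 lie above 0.

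Utrn, on chromosome 10 at 12382188-12869365, was at 218, 232 and 243 CPM with vehicle and 234, 269 and 287 CPM with PSB-KD107. The PSB-KD107 values reached higher, but the lowest of them lay within the vehicle range. The log2 fold change was 0.19 (95% interval -0.08 to 0.46, adjusted p = 0.657, edgeR), and 0.12 (-0.16 to 0.40) without PSB-KD107 library 4. The interval excludes a 2-fold rise or fall of the transcript. The exact permutation p was 0.2, where 3 against 3 libraries cannot go below 0.1 (two-sided). Nearest in pattern were Spire1 and Cdc42, both tied to actin assembly, and Lgr4, a receptor for R-spondins, at root mean square differences of 0.033, 0.037 and 0.038.

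Dag1, on chromosome 9 at 108204634-108263958, was at 1103, 1189 and 1236 CPM with vehicle and 976, 1318 and 1337 CPM with PSB-KD107. Its PSB-KD107 values lay on both sides of the vehicle range, and the difference was small, at a log2 fold change of 0.04 (95% interval -0.34 to 0.42, adjusted p = 0.947, edgeR).

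Among the sarcoglycans, Sgca had the smallest p-value of the 8 genes. Sgca, on chromosome 11 at 94962791-94976327, was at 109, 132 and 143 CPM with vehicle and 96.3, 117 and 81.8 CPM with PSB-KD107. Only PSB-KD107 library 2 lay above the lowest vehicle library, so the groups overlapped through that pair. On the log2 scale Sgca differed by -0.38 (95% interval -0.79 to 0.03, unadjusted p = 0.0625, adjusted p = 0.568, edgeR), and -0.27 (-0.68 to 0.14) without PSB-KD107 library 4. The part of the differentiation markers given above, 5 of 11 lower without overlap and 4 of 11 with a log2 fold change above 0, in the Sgca difference was not tested. Those 4 markers lay below 0 without PSB-KD107 library 4. Nearest to Sgca in pattern were Letmd1, Nup155, a nuclear pore subunit, and Mypn, a sarcomeric protein, at differences of 0.024, 0.025 and 0.036.

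Sgcb, on chromosome 5 at 73632749-73647790, had the tightest values of the 8 genes. It was at 227, 215 and 224 CPM with vehicle and 219, 205 and 231 CPM with PSB-KD107, a log2 fold change of -0.02 (95% interval -0.24 to 0.19, adjusted p = 0.947, edgeR).
Sgcd, on chromosome 11 at 46896253-47988969, was at 8.57, 12.2 and 9.18 CPM with vehicle and 8.17, 8.89 and 4.95 CPM with PSB-KD107. Library 4 was again the lowest, and the other PSB-KD107 libraries lay close to the lower vehicle values. On the log2 scale the difference was -0.44 (95% interval -1.12 to 0.24, adjusted p = 0.678, edgeR), and -0.23 (-0.76 to 0.31) without PSB-KD107 library 4.
Sgce, on chromosome 6 at 4674350-4747207, was at 33.1, 13.9 and 11.2 CPM with vehicle and 24.0, 10.0 and 14.6 CPM with PSB-KD107. It was highest in both libraries numbered 1, which are also the 2 libraries with low Xist, and the spread by number was larger than that by treatment. PSB-KD107 differed from vehicle by a log2 fold change of -0.26 (95% interval -1.49 to 0.98, adjusted p = 0.897, edgeR), and without vehicle library 1 it was 0.37.

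Dtna, on chromosome 18 at 23415135-23659715, was at 118, 121 and 108 CPM with vehicle and 104, 99.3 and 166 CPM with PSB-KD107. Libraries 1 and 2 with PSB-KD107 lay below all vehicle libraries and library 4 above them, so the group mean hid opposite displacements. Over all 6 libraries its log2 fold change was 0.09 (95% interval -0.42 to 0.61, adjusted p = 0.910, edgeR) and turned to -0.18 (-0.42 to 0.05, adjusted p = 0.608) without PSB-KD107 library 4. Dtna shares 90 exonic bases, 0.532% of its merged exons, with a gene on the opposite strand.

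**Figure D4:**
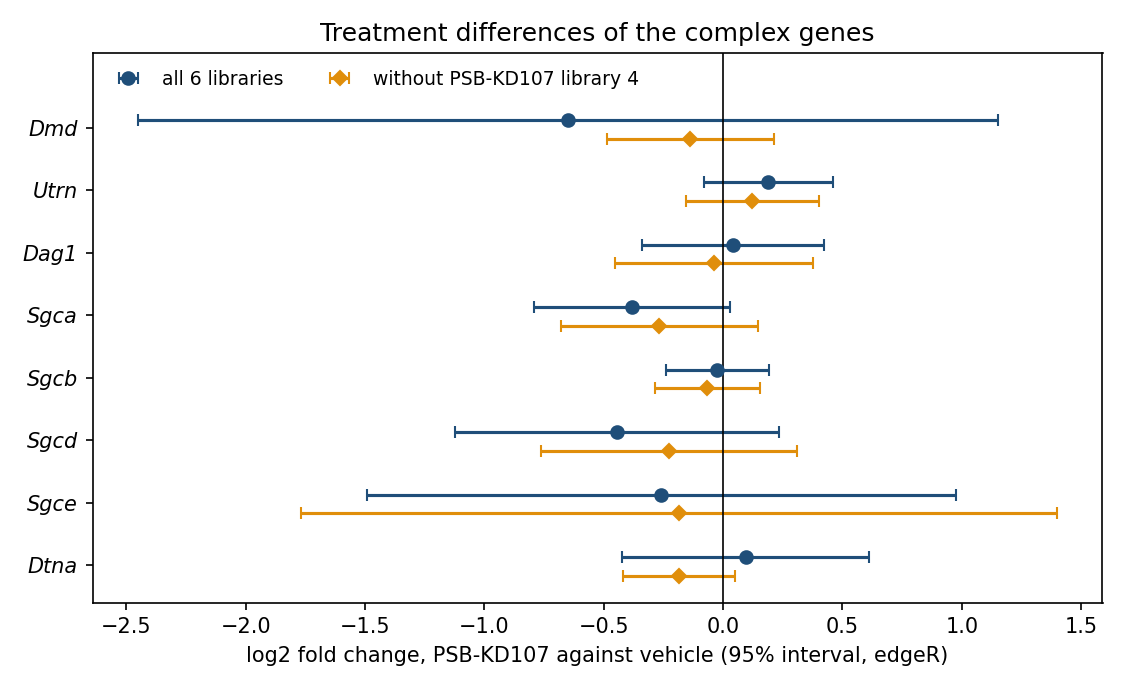
Log2 fold change of the 8 genes, PSB-KD107 against vehicle, with 95% intervals from edgeR's quasi-likelihood fit, for all 6 libraries (blue) and without PSB-KD107 library 4 (orange). Every interval includes 0, the Dmd interval narrows from -2.45 to 1.15 to -0.49 to 0.21, and Dtna changes sign.

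Genes that work with the complex were grouped by role in 6 further lists, and 0 genes of any list had an adjusted p under 0.05 with edgeR. Of genes tested, 6.47% had an unadjusted p under 0.05 with a higher and 2.93% with a lower level. Without overlap, 9.2% of genes tested were higher and 6.59% lower with PSB-KD107. In the order below, the lists had 9, 17, 9, 13, 7 and 6 tested genes. Of these, 0, 0, 0, 2, 1 and 1 were higher without overlap, and 1, 0, 0, 0, 0 and 0 lower.
Of 12 other subunits, 9 were tested, 4 with a log2 fold change above 0 and 5 below, with a median of -0.04. Sgcz, Sntg1 and Sntg2, a sarcoglycan and 2 syntrophins, had 0 CPM in every library. Drp2, a short relative of dystrophin known from peripheral nerve, was at 102, 111 and 115 CPM with vehicle and 67.8, 99.7 and 68.1 CPM with PSB-KD107. Its groups did not overlap, and it was the 1 gene of the list with an unadjusted p under 0.05 (log2 fold change -0.48, unadjusted p = 0.0326, adjusted p = 0.478, edgeR). The 5 Schwann cell markers summed to 4.16 to 5.68 CPM with vehicle and 2.62 to 4.43 CPM with PSB-KD107. Of these, 3 were tested, 1 with a log2 fold change above 0 and 2 below, and Ngfr, the low-affinity neurotrophin receptor, was lower without overlap (0.874, 0.834 and 0.303 CPM against 2.32, 1.26 and 1.33 CPM). Sox10, a factor that defines Schwann cells, had 2 counts in vehicle library 1 and 0 in the others. The part of these transcripts in the Drp2 difference was not tested.
Of 18 genes for the sugar chains through which dystroglycan binds laminin, 17 were tested, 6 above and 11 below 0, with a median of -0.06 and 0 at an unadjusted p under 0.05. Pomgnt1, an enzyme of O-mannosyl glycan synthesis, had a log2 fold change of -0.30 (unadjusted p = 0.0994, adjusted p = 0.621, edgeR), and B3galnt2, another, 0.21 (unadjusted p = 0.241, adjusted p = 0.731).
Among 13 matrix ligands, 9 were tested, 6 above and 3 below 0, with a median of 0.19. Lama5, the laminin alpha-5 chain, was at 75.0, 60.1 and 58.1 CPM with vehicle and 106, 70.8 and 115 CPM with PSB-KD107. One PSB-KD107 library lay within the vehicle range (log2 fold change 0.60, unadjusted p = 0.0281, adjusted p = 0.463, edgeR).
Of 14 cytoskeletal and costameric partners, 13 were tested, 8 above and 5 below 0, with a median of 0.15. Ank2, encoding ankyrin-B, which ties dystrophin to the membrane, was at 30.2, 28.6 and 31.8 CPM with vehicle and 57.2, 65.9 and 37.3 CPM with PSB-KD107. All 3 PSB-KD107 libraries lay above all vehicle libraries, with a log2 fold change of 0.82 (95% interval 0.30 to 1.35, unadjusted p = 0.0082, adjusted p = 0.326, edgeR). DESeq2 called 2.98% of all genes with an adjusted p, 2.26% of them as higher and the rest as lower. Of the 9, 17, 9, 13, 7 and 6 tested genes in these 6 lists, it called only Ank2 (adjusted p = 0.0452). This call was lost when any 1 of the 3 vehicle libraries or PSB-KD107 library 1 or 2 was left out (adjusted p = 0.108 to 0.410), and kept without PSB-KD107 library 4 (5.69e-10). Synm, an intermediate filament protein that binds dystrophin and desmin, was at 4.39, 3.90 and 3.26 CPM with vehicle and 6.76, 5.26 and 5.83 CPM with PSB-KD107, also without overlap (log2 fold change 0.63, unadjusted p = 0.0281, adjusted p = 0.463, edgeR). PSB-KD107 library 4 was the lowest of its group for Ank2, and without it the Ank2 change was 1.03 (0.76 to 1.30, adjusted p = 0.0986).
All 7 genes of the integrin alpha7 beta1 linkage, a parallel attachment to laminin, were tested, 5 above and 2 below 0, with a median of 0.11 and 0 at an unadjusted p under 0.05. Itga7 and Itgb1 were used for sorting. Cd151, a tetraspanin bound to laminin-binding integrins, had a log2 fold change of 0.11 (unadjusted p = 0.237, adjusted p = 0.730, edgeR). It was higher without overlap with PSB-KD107, as were 9.2% of genes tested. Itgb1 had a log2 fold change of 0.30 (unadjusted p = 0.253, adjusted p = 0.738, edgeR) with 1157 CPM in PSB-KD107 library 4 and 633 to 762 CPM elsewhere.
Of 7 polarity partners, through which dystrophin acts in dividing satellite cells, 6 were tested, 3 above and 3 below 0, with a median of 0.01 and 0 at an unadjusted p under 0.05. Pard6a and Pard6b, scaffolds of the polarity complex, had log2 fold changes of 0.41 (unadjusted p = 0.0732, adjusted p = 0.587, edgeR) and 0.63 (unadjusted p = 0.116, adjusted p = 0.635). Pard6a was also higher without overlap, while Pard6b overlapped.

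**Figure D5:**
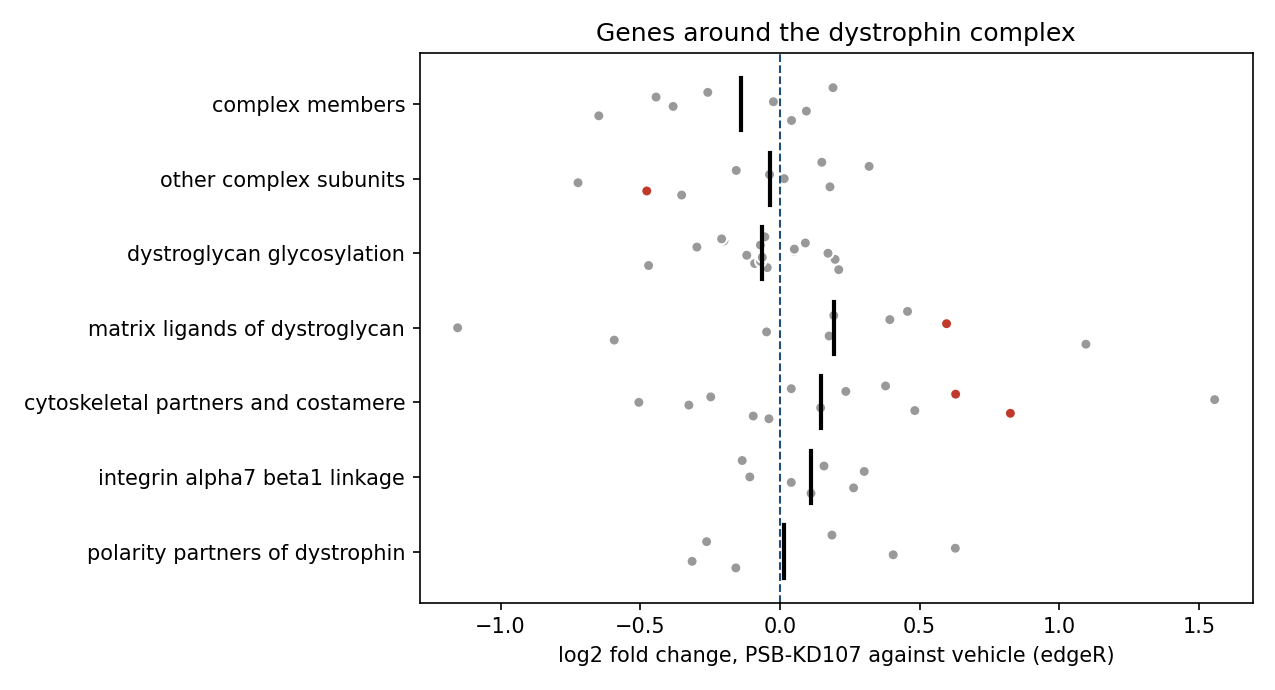
Log2 fold change, PSB-KD107 against vehicle, of each tested gene in the complex and the 6 lists around it (edgeR). Black bars are list medians, the dashed line is the median of all genes tested, and red points have an unadjusted p under 0.05. Red points are Drp2 on the left and Lama5, Synm and Ank2 on the right.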

How the data were processed

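The authors deposited raw counts per gene for 6 libraries, with no normalization. Polyadenylated RNA was converted with a directional kit, sequenced in paired-end mode and aligned with STAR to the mouse genome (mm10, per the submitters' processing notes). The counting program, annotation and strand setting are not given in the sources used here, so counts of overlapping genes are uncertain. Libraries were grouped by the sample records and column names, and those numbered 4 were placed in the group their names give, with no record of their own.

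Counts were analysed in R 4.3.3 with edgeR 4.0.16 (filterByExpr, TMM, quasi-likelihood test, Benjamini-Hochberg adjustment over 14165 genes, threshold 0.05), and in Python 3.11.15 with pandas 2.3.3, scipy 1.17.1 and matplotlib 3.10.9. DESeq2 1.42.0 and limma 3.58.1 (voom) were alternatives. DESeq2 was first run on the filtered genes with independent filtering at 0.05. All genes with a count and the default of 0.1 were taken after the counts of calls in 4 configurations were seen, to match an earlier analysis of these data. Other alternatives were RLE factors, other filters, a robust fit, a replicate block and each library left out. Lengths and positions came from GENCODE M21. Scripts were tested on simulated counts.

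The 8 genes and the lists were chosen with earlier results of these data known. Named genes were all 8, from each list every tested gene with an unadjusted p under 0.05 or else the 2 with the smallest p, the markers Pax7, Myf5, Myod1, Myog, Myh3 and Ckm, and for Dmd, Utrn and Sgca the 3 nearest patterns among genes with a mean of at least 1 CPM. Genes named outside this rule were chosen after their values were seen. They were the sex-linked transcripts, Ttn, Acta1, Tnnt3, the named markers of fibro-adipogenic progenitors and Schwann cells, Tmem47, Tab3 and the subunits with 0 CPM. A gene of the Schwann cell list is not reported here.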

Additional observations from a re-analysis of the deposited data

How the results depend on the processing

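Utrn, Sgca, Sgcd and Dmd kept their direction under every alternative that gave a value, with log2 fold changes of 0.11 to 0.26, -0.53 to -0.18, -0.61 to -0.23 and -1.17 to -0.14. Dmd had no value with a mean FPKM of at least 1, which it did not reach. Its largest value came from limma-voom, and its smallest from leaving out PSB-KD107 library 4. Leaving out 1 library at a time gave -0.037 to 0.16 for Dag1, -0.18 to 0.22 for Dtna, -0.066 to 0.013 for Sgcb and -0.67 to 0.37 for Sgce with edgeR, and -0.053 to 0.17, -0.20 to 0.22, -0.080 to 0.014 and -0.66 to 0.36 with DESeq2, so each of these 4 changed sign. The other negative DESeq2 values of Dag1 were -0.016 without vehicle library 1 and -0.029 without PSB-KD107 library 2. Same-numbered libraries deviated together for numbers 1 and 2 (correlation 0.63 and 0.52) but not 4 (-0.13), and vehicle library 4 correlated best with PSB-KD107 library 2 (0.64), so the numbers were not taken to pair the samples. With the number as a replicate block on libraries 1 and 2, edgeR called 2456 of 14400 genes (17.1%) and 1 of the 8, Sgce (-0.47, adjusted p = 0.015), Dag1 was at -0.015, and Dtna at -0.23. The same 4 libraries with no block called 0 genes and gave Dtna at -0.23, and a block over all 6 libraries called 0. Without a filter on low counts edgeR called 8 genes, none of them among the 8 of the complex. DESeq2 called 410 genes, or 602, 177 and 160 without vehicle library 1, 2 or 4 and 275, 768 and 674 without PSB-KD107 library 1, 2 or 4, with 0 of the 8 in each. These fits were chosen after seeing the data. Its first configuration (genes past the edgeR filter, independent filtering at 0.05) called 480, and 2 more, also chosen after seeing the data, called 482 (the same genes, 0.1) and 407 (all genes with a count, 0.05), with 0 of the 8 in each. RLE factors, limma-voom, the robust fit and the FPKM filter called 0 genes. The cause of these differences was not tested. Intervals for low genes such as Dmd and Sgcd rest on fewer counts than those of Dag1.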
